A study of Mus musculus with 8 samples.

Results

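The genes described here encode the heat shock proteins, their DnaJ partners and the Bag co-chaperones. They were taken by symbol from the platform annotation, as every name that starts with Hsp followed by a letter from a to h or a digit, with Dnaja, Dnajb or Dnajc and a digit, or with Bag and a digit. Hspa5, Hsp90b1, Dnajb9, Dnajb11 and Dnajc3, which work in the endoplasmic reticulum, were left out. This gave 74 of the 19937 genes measured. RNA came from R1 mouse embryonic stem cells, a male line from the inner cell mass of a 129X1 x 129S1 embryo, which were grown on gelatin with LIF and 15% serum. Cells received 2 µg of a pLKO.1 plasmid by transient transfection, either with a hairpin against GFP (shGFP, the control, 4 arrays numbered 1, 3, 5 and 7) or with a hairpin against MKRN1 (shMKRN1, 4 arrays numbered 2, 4, 6 and 8). Puromycin at 2 µg/mL was given to both groups for 4 days, and RNA was taken on day 6. MKRN1 is a RING-type E3 ubiquitin ligase that also binds mRNA. The knockdown rests on a single hairpin, whose target sequence the labels give as follows.
shMKRN1: gcgagatgttgcttatgcttt

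HSP70 proteins bind unfolded stretches of other proteins and release them in a cycle driven by ATP. DnaJ proteins bring substrates to HSP70 and start its ATP hydrolysis, while HSP110 and Bag proteins exchange the nucleotide and so end the cycle. HSP90 takes over clients such as kinases and hormone receptors from HSP70, small heat shock proteins hold aggregating proteins, and HSP60 with HSP10 folds proteins inside mitochondria. Under heat or other protein damage, heat shock factors raise many of these transcripts together, and cells with more unfolded or undegraded protein are known for the same response.

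Most chaperone transcripts showed no difference between the groups that passed the test. Bag3 and Hspb11 rose in shMKRN1, and no member fell. That is 2 of 74 members called higher (2.7%), against 3.66% of all genes, and 0 called lower, against 0.838% of all genes (limma, Benjamini-Hochberg adjusted p at most 0.05 over all 19937 genes). At an unadjusted p of at most 0.05 there were 14 members (18.9%; 9 higher and 5 lower), beside 19.5% of all genes. The groups did not overlap for 10 members with higher shMKRN1 values (13.5%), beside 10.6% of all genes, and for 2 members with lower values (2.7%), beside 3.51%. The median change of the 74 members was 0.04 on the log2 scale, and that of all genes 0.0077. The middle 50% of members lay between -0.02 and 0.10. A higher mean in shMKRN1 was found for 49 of the 74 members (66.2%), beside 52.7% of all genes. The families described below hold few genes, so 0 calls in a family lies near the shares called over all genes. All changes are shMKRN1 minus shGFP on the log2 scale of the deposited values.

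The intervals around these changes were narrow. For 50 of the 74 members (67.6%) the 95% interval of the change, not adjusted for the number of genes, lay within 1.2-fold either way, beside 55.7% of all genes. Member changes ran from -0.21 (Dnajb8) to 0.42 (Dnajc5g, at levels where silent genes lie, so that this value could not be assessed). A difference of more than 0.2 in either direction was seen for 5 of 74 members (6.76%), beside 11.8% of all genes. Both group means lay at the levels of silent genes for 7 members (9.46%), beside 28.9% of all genes. The median pooled SD within groups was 0.0815 for members and 0.104 for all genes. The part of expression level in these shares was not tested.

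**Figure D1:**
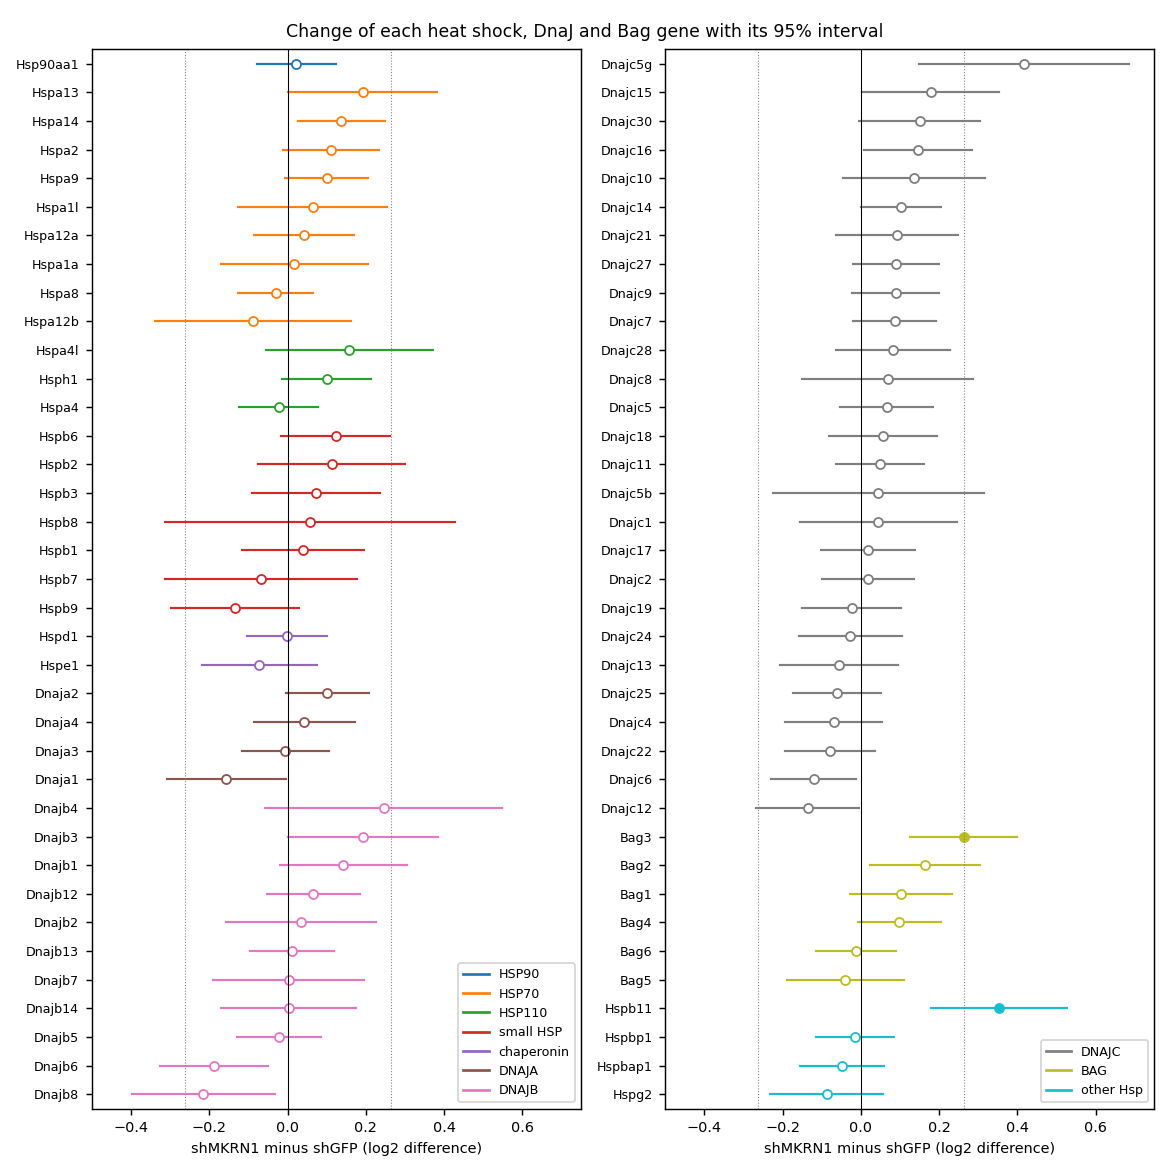
Change of each of the 74 genes, shMKRN1 minus shGFP, as a log2 difference with its 95% limma interval, grouped and coloured by family and sorted within family. Filled points (Bag3 and Hspb11) have an adjusted p of at most 0.05, and dotted lines mark a 1.2-fold change either way.

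The targeted gene was lower in every shMKRN1 array. Mkrn1 kept 66.2% of its control level (95% interval 61% to 71.7%; limma adjusted p = 0.000767; exact permutation p = 0.0286, the smallest that 4 against 4 arrays allow). Array medians lay between 7.14 and 7.24. On the leading principal component of all genes (37.6% of the variance) array shGFP 7 stood apart from the other shGFP arrays, and shMKRN1 8 from the other shMKRN1 arrays. All 10 pluripotent stem cell markers lay above the level under which 95% of olfactory and vomeronasal receptor genes lay (6.50), receptors taken here as silent in these cells. Nanog, a pluripotency factor, rose by 0.25 (limma adjusted p = 0.0256), and none of the other 9 passed. In such a culture, fewer cells of a type and less RNA per cell cannot be told apart.

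Bag3 was the only called member that takes part in the chaperone cycle. It joins HSP70 to small heat shock proteins and passes bound proteins to autophagy, and its gene is among those induced by heat. Its log2 level was 9.21, 9.33, 9.11 and 9.26 in shGFP and 9.58, 9.42, 9.47 and 9.50 in shMKRN1. Every shMKRN1 array exceeded every shGFP array, with shGFP 3 and shMKRN1 4 the closest pair. The change of 0.26 (SE 0.0614) is 1.2-fold (95% interval 1.09 to 1.32; limma adjusted p = 0.0417). This call was narrow: it was lost whichever array was left out (adjusted p 0.0526 to 0.119), while the change stayed between 0.22 and 0.30 in those fits. Under quantile normalization the change was 0.23 with an adjusted p of 0.0765.

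Bag3 is strongly expressed in muscle, and 2 of the 7 muscle and heart markers rose with it, Actc1 by 0.62 (limma adjusted p = 0.00255) and Des by 0.34 (adjusted p = 0.0184). The mean log2 level of those 7 markers was 7.19 to 7.30 in the shGFP arrays and 7.34 to 7.46 in the shMKRN1 arrays. Myl2 was within that silent range, and Myh6, Myh7 and Tnnt2 differed by -0.01, -0.0018 and 0.01. Myl7 differed by 0.19 (limma adjusted p = 0.326). Of 10 fibroblast markers, Pdgfrb (0.35, adjusted p = 0.0342) and Col1a1 (0.37, adjusted p = 0.0486) rose. The list mean was 7.44 to 7.55 in shGFP and 7.47 to 7.67 in shMKRN1, and Postn and Lum were within the silent range. Col1a2 (0.22), Thy1 (0.145), Pdgfra (0.08), Dcn (0.06), Col3a1 (0.03) and Fn1 (-0.09) did not pass. Over all genes, the share called higher was 3.66%. The part of the muscle, heart and fibroblast markers in the Bag3 result was not tested.

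Hspb8, the small heat shock protein that Bag3 binds in that autophagy complex, did not pass the test. Its log2 level was 9.51, 9.07, 8.85 and 8.65 in shGFP and 9.26, 9.18, 9.04 and 8.83 in shMKRN1. The groups overlapped fully, and the change of 0.06 had a 95% interval from -0.31 to 0.43 (limma adjusted p = 0.899), wide enough to hold the change of Bag3. Stub1, the gene of the ubiquitin ligase CHIP that works with HSP70 and Bag proteins, changed by 0.11 (limma adjusted p = 0.343).

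The other Bag genes had smaller differences. Bag2, which inhibits CHIP, was at 7.01, 6.95, 7.02 and 7.09 in shGFP and at 7.08, 7.22, 7.11 and 7.31 in shMKRN1, with array 2 inside the shGFP range (0.16, SE 0.0633; limma adjusted p = 0.185). Bag1, a nucleotide exchange factor of HSP70, and Bag4, also known as a silencer of death receptors, each had a change of 0.10 (adjusted p 0.381 and 0.29), and the groups did not overlap for Bag4. Bag5 (-0.04) and Bag6 (-0.01), the latter a holder of tail-anchored membrane proteins, lay within 1.2-fold by their intervals.

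The Bag3 promoter is shown because Bag3 carried the call within the chaperone cycle and is a known heat shock gene. The window runs from 250 bases before to 50 bases after the start, at chr7:128523333-128523632 on the plus strand of GRCm38.p6 (RefSeq). It was searched for the heat shock element, the site of heat shock factors, written as GAANNTTCNNGAA or its reverse complement TTCNNGAANNTTC. No match to these 13 letters was found in it, so it has no capitals.
Bag3: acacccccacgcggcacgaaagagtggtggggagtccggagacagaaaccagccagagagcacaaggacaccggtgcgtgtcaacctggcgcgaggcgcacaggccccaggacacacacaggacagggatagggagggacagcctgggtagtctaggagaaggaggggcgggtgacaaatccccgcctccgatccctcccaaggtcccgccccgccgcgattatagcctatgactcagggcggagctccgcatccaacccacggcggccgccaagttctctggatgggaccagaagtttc

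Across the RefSeq table, 198 of 32851 such windows (0.603%) held the element. Among the members, 60 genes matched the table with 78 windows, and 6 windows (7.69%) of 4 genes held it: Hspd1, Hspe1, Hsph1 and Dnajb6. None of these 4 genes passed the test. Windows of 1 gene can overlap, and Hspd1 and Hspe1 share theirs, so these are not independent matches. A match is a description of letters and no measured site, and no match, as in Bag3 and Hspb11, says only that these letters are not in this window.

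Hspd1 (HSP60) and Hspe1 (HSP10) form the mitochondrial chaperonin and are read from opposite strands, with starts 216 bases apart and 285 bases of the windows in common. The window of Hspe1, at chr1:55087898-55088197 on the plus strand of GRCm38.p6, is printed with the letters of 2 overlapping elements in capitals, which begin at positions -89 and -84 from the Hspe1 start.
Hspe1: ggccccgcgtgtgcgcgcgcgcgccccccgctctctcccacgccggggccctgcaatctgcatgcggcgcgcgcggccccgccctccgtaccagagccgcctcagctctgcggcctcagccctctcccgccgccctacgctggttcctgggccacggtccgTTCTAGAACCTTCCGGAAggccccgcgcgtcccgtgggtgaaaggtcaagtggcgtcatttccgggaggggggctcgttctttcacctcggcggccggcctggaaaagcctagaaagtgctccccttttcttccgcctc

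Neither gene of this shared promoter passed the test. Hspd1 was at 12.50, 12.52, 12.52 and 12.51 in shGFP and 12.53, 12.54, 12.53 and 12.44 in shMKRN1, a change of -0.0016 with a 95% interval from -0.10 to 0.10. On this kept probe set only array shMKRN1 8 left the narrow band of the others. On the other Hspd1 probe set that array (12.31) lay within the shGFP range (12.28 to 12.32), and the change was 0.02. Hspe1 was at 12.31, 12.20, 12.27 and 12.19 in shGFP and 12.14, 12.29, 12.24 and 12.02 in shMKRN1 (-0.07, interval -0.22 to 0.07; limma adjusted p = 0.622), and its groups overlapped. Its other probe set changed by 0.04.

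The other 2 genes with the element are shown by the bases around it, Hsph1 at chr5:149636266-149636324 (minus strand, with the element beginning 16 bases after this start) and Dnajb6 at chr5:29735828-29735888 (plus strand), both in GRCm38.p6 with the element in capitals.
Hsph1: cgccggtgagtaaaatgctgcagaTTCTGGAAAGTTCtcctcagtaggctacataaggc
Dnajb6: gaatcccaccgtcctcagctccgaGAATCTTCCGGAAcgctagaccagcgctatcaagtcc

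Hsph1, an HSP110 protein that exchanges the nucleotide of HSP70 and is induced by heat, was at 11.20, 11.12, 11.19 and 11.11 in shGFP and 11.31, 11.27, 11.26 and 11.18 in shMKRN1. Array 8 fell inside the shGFP range, and the change of 0.10 (SE 0.0511) did not pass (limma adjusted p = 0.326). Its relative Hspa4l, most abundant in testis, was at 7.49, 7.42, 7.47 and 7.03 in shGFP and 7.49, 7.57, 7.49 and 7.50 in shMKRN1. Array shGFP 7 was low and shMKRN1 4 slightly high there, and the groups overlapped (change 0.16; adjusted p = 0.418). Hspa4 differed by -0.02, with an interval from -0.12 to 0.08.

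Dnajb6, a DnaJ protein that keeps aggregation-prone proteins soluble, was the only chaperone of the DNAJB class whose groups did not overlap. Its level was 7.22, 7.32, 7.25 and 7.36 in shGFP and 7.11, 7.07, 7.22 and 6.99 in shMKRN1. The lowest shGFP array and the highest shMKRN1 array were nearly equal. The change of -0.19 (SE 0.0615) did not pass (limma adjusted p = 0.121). This probe set lists 1 RefSeq transcript of the gene. The 3 probe sets shared by Dnajb6 and Gm4247 had changes of 0.01, -0.14 and 0.02, so the lower value was not seen in all of them.

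The main cytosolic HSP90 and HSP70 genes, Hsp90aa1 and Hspa8, had intervals close around 0 on their kept probe sets. Their other probe sets with 1 symbol, given further below, had lower means in shMKRN1. Probe sets that Hspa8 shares with Snord14d and Snord14c changed by 0.04 and -0.11. Hsp90aa1, the inducible HSP90, was at 13.29, 13.37, 13.37 and 13.31 in shGFP and 13.36, 13.38, 13.35 and 13.34 in shMKRN1, a change of 0.02 with a 95% interval from -0.08 to 0.12. Hsp90ab1, the constitutive form, was not analysed here. Hspa8, the constitutive HSP70 of the cytosol, was at 13.69, 13.68, 13.66 and 13.64 in shGFP and 13.64, 13.65, 13.64 and 13.63 in shMKRN1 (-0.03, interval -0.13 to 0.07).

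Hspa1a, the HSP70 most strongly induced by heat, was at 9.56, 9.31, 9.22 and 9.16 in shGFP and 9.41, 9.32, 9.34 and 9.24 in shMKRN1. The shMKRN1 values all lay within the shGFP range (change 0.02, interval -0.17 to 0.20; limma adjusted p = 0.949). A probe set shared by Hspa1a and its near copy Hspa1b changed by 0.16 (SE 0.0873, unadjusted p = 0.106). Hspb1 (HSP25), a small heat shock protein that also rises with heat, was at 12.67, 12.66, 12.41 and 12.54 in shGFP and 12.71, 12.57, 12.57 and 12.58 in shMKRN1, with a change of 0.04 (interval -0.12 to 0.19). Of the 12 measured members of a list of 14 classical heat-inducible genes, Bag3 rose and no other passed. Of all genes, 3.66% were called higher and 0.838% lower. The list was chosen with earlier results of these data known, and the median change of its measured members was 0.03.

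Within HSP70, the 2 members with the smallest p were Hspa14 and Hspa13. Hspa14, which works at the ribosome with Dnajc2, was at 10.30, 10.34, 10.43 and 10.37 in shGFP and 10.52, 10.44, 10.51 and 10.53 in shMKRN1. Its groups were just separate, and the change of 0.14 (SE 0.0496) did not pass (limma adjusted p = 0.156). Its partner Dnajc2 changed by 0.02. Hspa13, a truncated HSP70 of the secretory pathway, was at 8.89, 8.67, 8.87 and 8.60 in shGFP and 8.95, 9.10, 8.95 and 8.80 in shMKRN1 (0.19; adjusted p = 0.253), with overlap through array 8. Hspa9, the mitochondrial HSP70, had non-overlapping groups of 12.04 ± 0.029 and 12.14 ± 0.0462 (SD, n = 4 each) but an adjusted p of 0.284 by limma. Of all 9 HSP70 genes measured, 0 passed, Hspa12a changed by 0.04, and Hspa1l and Hspa12b lay within the silent range.

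Some heat-inducible members varied widely between arrays of 1 group. Hspb8 had the largest pooled SD of the 74 (0.293) and Dnajb4, a cytosolic partner of HSP70, the next (0.236), beside a median of 0.0815 for all members and 0.104 for all genes. Dnajb4 was at 8.18, 7.73, 7.96 and 7.49 in shGFP and 7.98, 8.28, 8.12 and 7.96 in shMKRN1 (0.25, interval -0.06 to 0.55; limma adjusted p = 0.37). Hspb8, Dnajb4 and Hspa1a each had their highest shGFP value on array 1 and their lowest on array 7, and array 8 was the lowest of shMKRN1 for all 3. These arrays are those that stood apart over all genes, except for shGFP 1, and the part of array differences in this spread was not tested.

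**Figure D2:**
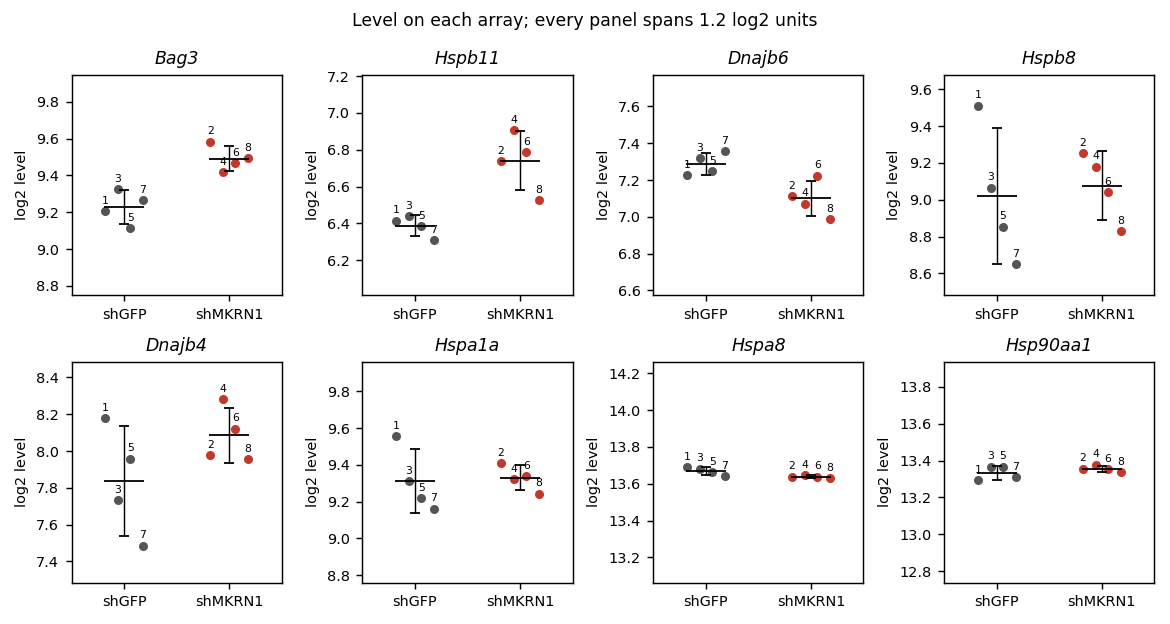
Log2 level of 8 genes on each array (points, with array numbers), with the group mean and SD (n = 4 each); every panel spans the same height on the log2 scale. Bag3 and Hspb11 separate by group, while Dnajb6 does so only by a very small margin and did not pass the test (limma adjusted p = 0.121). Hspb8, Dnajb4 and Hspa1a spread within groups, and Hspa8 and Hsp90aa1 differ little on their kept probe sets.

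The other small heat shock proteins gave 0 calls among 7 genes. Hspb6, a partner of Bag3 in muscle, was at 8.48, 8.63, 8.38 and 8.50 in shGFP and 8.65, 8.58, 8.69 and 8.57 in shMKRN1 (0.12; limma adjusted p = 0.318). Its groups overlapped through shGFP 3. Hspb9, a testis form, was at 7.44, 7.61, 7.52 and 7.75 in shGFP and 7.54, 7.35, 7.41 and 7.47 in shMKRN1 (-0.13; adjusted p = 0.362). Hspb2 (0.11) and Hspb7 (-0.07) are muscle forms and did not pass, and Hspb3 (0.07) was within the silent range.

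Hspb11 had the larger of both called changes, but its protein, also known as IFT25, is known as a part of intraflagellar transport in cilia more than as a chaperone. Its log2 level was 6.42, 6.44, 6.39 and 6.31 in shGFP and 6.74, 6.91, 6.79 and 6.53 in shMKRN1. All shMKRN1 arrays were higher, with array 8 the closest to the controls. The change of 0.35 (SE 0.0781) is 1.28-fold (95% interval 1.13 to 1.44; limma adjusted p = 0.0336). The shGFP mean of 6.39 lay below the 6.50 that bounds 95% of silent receptor genes and the shMKRN1 mean of 6.74 above it. The call held without shMKRN1 8 (adjusted p = 0.0103) and was lost in each of the other 7 fits that left out an array (up to 0.107).

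The rule also takes 3 further genes by name. Hspg2 encodes perlecan, a proteoglycan of basement membranes, and was at 10.73, 10.71, 10.62 and 10.52 in shGFP and 10.68, 10.54, 10.50 and 10.51 in shMKRN1 (-0.09; limma adjusted p = 0.522). Hspbp1, an exchange factor of HSP70, changed by -0.01 and Hspbap1, which binds small heat shock proteins, by -0.05. All 3 had intervals within 1.2-fold.

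Of the 4 DNAJA genes, 0 passed. Dnaja1, a main cytosolic and heat-inducible J protein, was at 11.22, 11.14, 11.34 and 11.04 in shGFP and 10.99, 11.09, 11.05 and 10.98 in shMKRN1 (-0.16, SE 0.068; limma adjusted p = 0.241). Its other probe set had a change of 0.10, of opposite sign. Dnaja2, its close relative, was at 10.92, 10.97, 11.03 and 10.93 in shGFP and 11.05, 11.10, 11.03 and 11.07 in shMKRN1, and every shMKRN1 array was above the shGFP arrays, array 6 by a very small margin (0.10; adjusted p = 0.281). Dnaja3, of mitochondria, changed by -0.01 and Dnaja4 by 0.04.

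The 11 DNAJB genes also gave 0 calls. Dnajb1 (HSP40), the main heat-induced partner of HSP70, was at 9.49, 9.30, 9.45 and 9.26 in shGFP and 9.58, 9.59, 9.52 and 9.38 in shMKRN1 (0.14, interval -0.02 to 0.30; limma adjusted p = 0.325), with array 8 inside the shGFP range. Dnajb8, a testis relative of Dnajb6 that also suppresses aggregation, was at 7.69, 7.59, 7.43 and 7.77 in shGFP and 7.51, 7.43, 7.26 and 7.42 in shMKRN1 (-0.21, SE 0.0816; adjusted p = 0.177). The groups of both genes overlapped. Dnajb12 (0.07) and Dnajb14 (0.0026), anchored in the membrane of the endoplasmic reticulum, Dnajb2 (0.03), Dnajb5 (-0.02) and the sperm flagellum gene Dnajb13 (0.01) did not pass. Dnajb3 (0.19) and Dnajb7 (0.0030) were within the silent range.

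The 27 DNAJC genes, a class with varied tasks, also gave 0 calls, with a median change of 0.06. Their means were higher for 19 and lower for 8, beside 52.7% of all genes with a higher mean. Dnajc5g, a testis member of the cysteine string family, was at 5.84, 6.21, 5.86 and 6.18 in shGFP and 6.46, 6.13, 6.55 and 6.60 in shMKRN1, with shMKRN1 4 inside the shGFP range. Its change of 0.42 (SE 0.121; limma adjusted p = 0.086) was the largest of the 74, within the silent range, and it passed under quantile normalization (0.46, adjusted p = 0.0319) and median centring (0.44, adjusted p = 0.0402), and without shMKRN1 4 (0.52, adjusted p = 0.0451). Dnajc6 (auxilin), which recruits Hspa8 to strip clathrin from vesicles, was at 8.64, 8.68, 8.57 and 8.59 in shGFP and 8.53, 8.49, 8.47 and 8.52 in shMKRN1. Every shMKRN1 array was lower (-0.12, SE 0.0483; adjusted p = 0.199).

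Mitochondrial J proteins included Dnajc15, which sits at the inner membrane import channel (0.18, adjusted p = 0.251), Dnajc30 (0.15, adjusted p = 0.27), Dnajc28 (0.08), Dnajc11 (0.05), Dnajc19 (-0.02) and Dnajc4 (-0.07). Together with Hspa9, Hspd1, Hspe1 and Dnaja3, 5 of these 10 genes had a higher mean in shMKRN1, beside 52.7% of all genes. The other 5 had a lower mean, and 0 of the 10 passed limma. Hspd1 and Hspe1 are counted as lower by their kept probe sets, while their other probe sets changed by 0.02 and 0.04. Among DNAJC genes of the endoplasmic reticulum, Dnajc16 changed by 0.15 (adjusted p = 0.224), the disulfide reductase gene Dnajc10 by 0.14 and Dnajc1 by 0.04. The groups did not overlap, with higher shMKRN1 values as in 10.6% of all genes, for 4 others. They were Dnajc14 (0.10), Dnajc27 (0.09), the histone co-chaperone gene Dnajc9 (0.09) and Dnajc7 (0.09), which links HSP70 and HSP90. None of these passed.

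Of the remaining DNAJC genes, Dnajc12, which binds the hydroxylases of aromatic amino acids, had a change of -0.14 (limma adjusted p = 0.24). Dnajc13, an endosomal protein, was measured by 15 probe sets, 14 of them with a lower shMKRN1 mean, from -0.29 to 0.08; the kept one changed by -0.05. Changes were 0.09 for the ribosome assembly gene Dnajc21, 0.07 for Dnajc8, 0.07 for the synaptic vesicle gene Dnajc5 and 0.06 for Dnajc18. They were 0.02 for Dnajc17, -0.03 for Dnajc24 of diphthamide synthesis, -0.06 for Dnajc25 and -0.08 for Dnajc22. Dnajc5b (0.04) was within the silent range.

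Germ cell members did not pass. Of 10 such genes (Hspa1l, Hspa2, Hspa4l, Hspb9, Dnajb3, Dnajb7, Dnajb8, Dnajb13, Dnajc5b and Dnajc5g), 8 had a higher and 2 a lower mean, beside 52.7% of all genes with a higher one. The median change of the 10 was 0.05. For 5 of the 10, both group means were within the silent range, so a change in them could not be assessed. Hspa2, needed in meiosis, changed by 0.11 (limma adjusted p = 0.303).

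Read by array, the median of the members shifted little. The median deviation of the 74 members from the shGFP mean was 0.0049, 0.01, 0.02 and -0.03 in shGFP 1, 3, 5 and 7, and 0.07, 0.05, 0.03 and 0.01 in shMKRN1 2, 4, 6 and 8. Array shMKRN1 8 lay below shGFP 5 in this measure. Over all genes the same medians were -0.02, 0.01, -0.01 and 0.01 in shGFP and 0.04, -0.0069, -0.01 and 0.03 in shMKRN1. Array shGFP 7 held the lowest value of 23 of the 74 members (31.1%, beside 20.5% of all genes), and shMKRN1 4 the highest of 20 (27%, beside 11.7%).

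**Figure D3:**
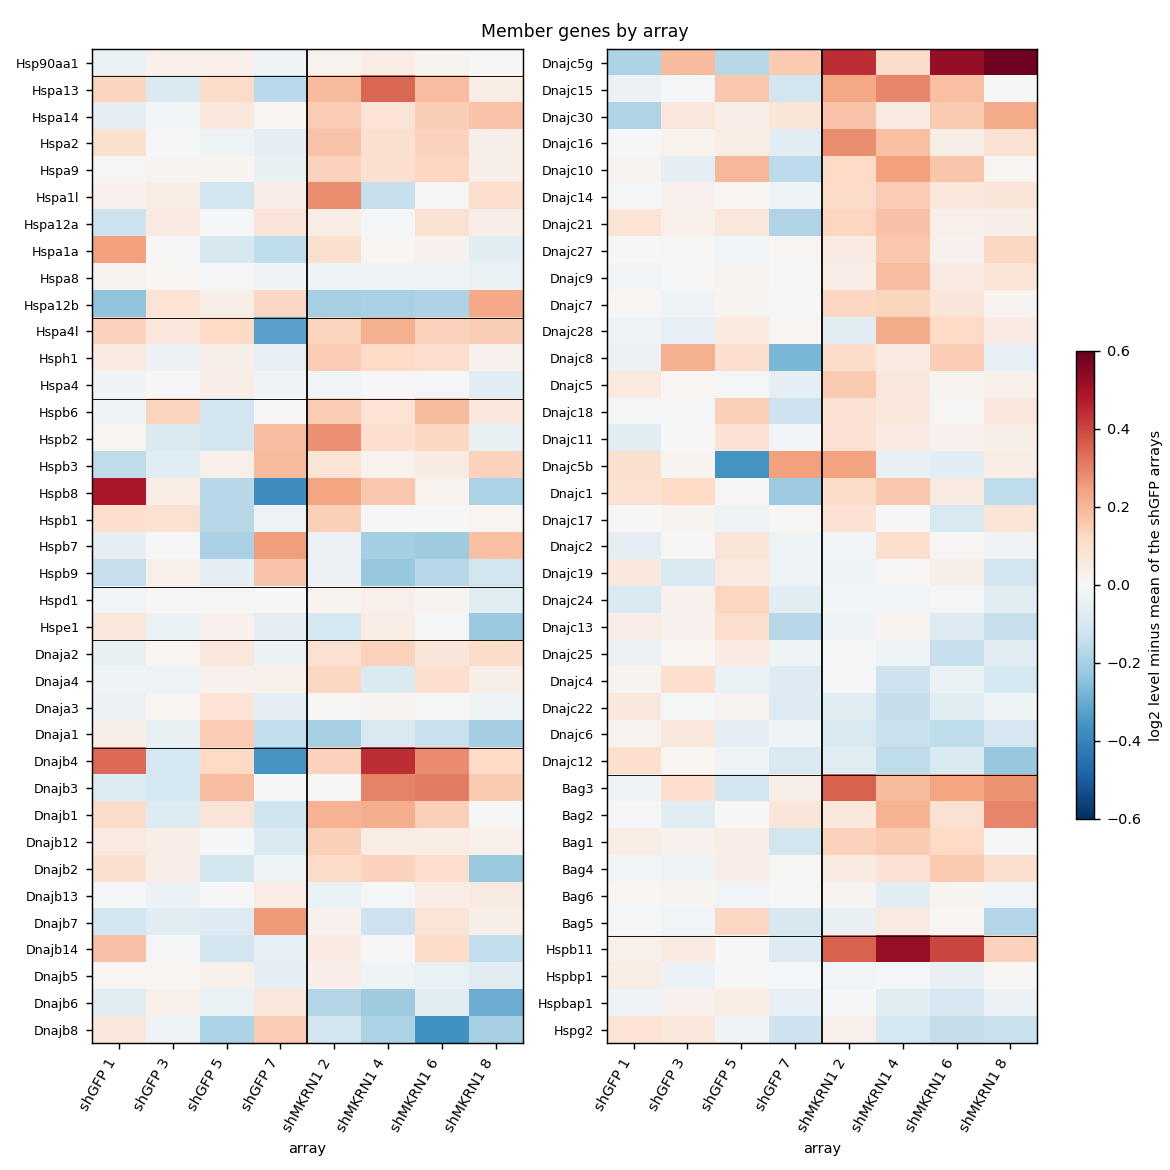
Log2 level of each of the 74 genes on each array minus the mean of its shGFP arrays (colour), with shGFP left and shMKRN1 right of the black line, in the order of families of the plot of changes. Bag3 and Hspb11 are higher in all 4 shMKRN1 arrays, while Hspb8 and Dnajb4 vary within shGFP.

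Several members are read by more than 1 probe set, and copies of these genes can share signal on an array. This held for 7 members. The probe sets not kept changed by -0.21 and -0.02 for Hsp90aa1, -0.14 and -0.08 for Hspa8, 0.02 for Hspd1, 0.04 for Hspe1 and -0.03 for Hspb1. None passed over all probe sets, and the signs disagreed for Hsp90aa1, Hspd1, Hspe1, Hspb1 and Dnaja1, and for 1 of the 15 probe sets of Dnajc13. Whether the kept probe set reads the gene or a copy was not tested.

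Outside the cytosolic chaperones, 1 of the 5 genes of the endoplasmic reticulum that the rule leaves out rose, Dnajb11, a partner of BiP (0.33, SE 0.058; limma adjusted p = 0.0139), a call lost without shMKRN1 2 (adjusted p = 0.0524). Hspa5 (BiP) differed by 0.10, Dnajc3 by 0.17, Hsp90b1 by 0.05 and Dnajb9 by -0.07, and none of these passed. Over all genes, the share called higher was 3.66%. No test compared Dnajb11 with Bag3.

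Other protein folding genes showed a few higher transcripts. Of 76 genes of 6 lists outside the members, 7 rose (9.21%, beside 3.66% of all genes) and 0 fell (beside 0.838%). Their median change was 0.08, beside 0.0077 for all genes, and 61 of the 76 had a higher mean in shMKRN1, beside 52.7% of all genes. No gene of these lists had both group means within the silent range, beside 28.9% of all genes. These shares therefore do not compare genes of like level, and the lists were chosen with earlier results of these data known. Hscb, a J protein without a Dnaj symbol that helps Hspa9 pass on iron-sulfur clusters, was at 7.02, 6.99, 6.99 and 7.02 in shGFP and 7.40, 7.26, 7.41 and 7.41 in shMKRN1. Its groups were well apart (0.37, SE 0.051; limma adjusted p = 0.00513), and its call held in each fit that left out an array (adjusted p up to 0.025).

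Among the 22 genes of the CCT chaperonin, prefoldin and tubulin folding, 4 rose and 0 fell, beside 3.66% and 0.838% of all genes. These were the prefoldin subunit gene Pfdn5 (0.39, limma adjusted p = 0.0215), the tubulin cofactor genes Tbca (0.32, adjusted p = 0.0381) and Tbcb (0.25, adjusted p = 0.0466), and Pdcl3 (0.20, adjusted p = 0.0448), a helper of CCT. No subunit of CCT itself passed. Among 29 co-chaperones of HSP90 and HSP70, 1 rose, the immunophilin gene Fkbp5 (0.30, adjusted p = 0.0192), which is also a known target of glucocorticoid receptors, and Sil1 had the next lowest p (0.21, adjusted p = 0.0872). Among 6 genes of the Bag6 pathway, Get4 rose (0.30, adjusted p = 0.016), and its partner Bag6 did not (-0.01).

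No heat shock factor or regulator passed among 7 measured. Hsf2bp, which binds Hsf2 and acts in meiosis, changed by 0.21 (limma adjusted p = 0.0706), the deacetylase gene Hdac6 by 0.16 (adjusted p = 0.0708) and Hsf2 by 0.06. Hsf1 was not analysed here. Of 13 other heat shock targets, none passed, with Mrpl18 (0.23, adjusted p = 0.0608) and the collagen chaperone gene Serpinh1 (0.38, adjusted p = 0.0666) the nearest. Of the 7 called genes, Pdcl3 and Tbcb kept their call only without shMKRN1 8, Tbca only without shGFP 7 or shMKRN1 8, and Pfdn5 only without shGFP 5, shGFP 7 or shMKRN1 8 (adjusted p up to 0.133 over these 4 genes). Fkbp5 and Get4 lost theirs without shMKRN1 2, 4 or 6 (up to 0.0752).

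**Figure D4:**
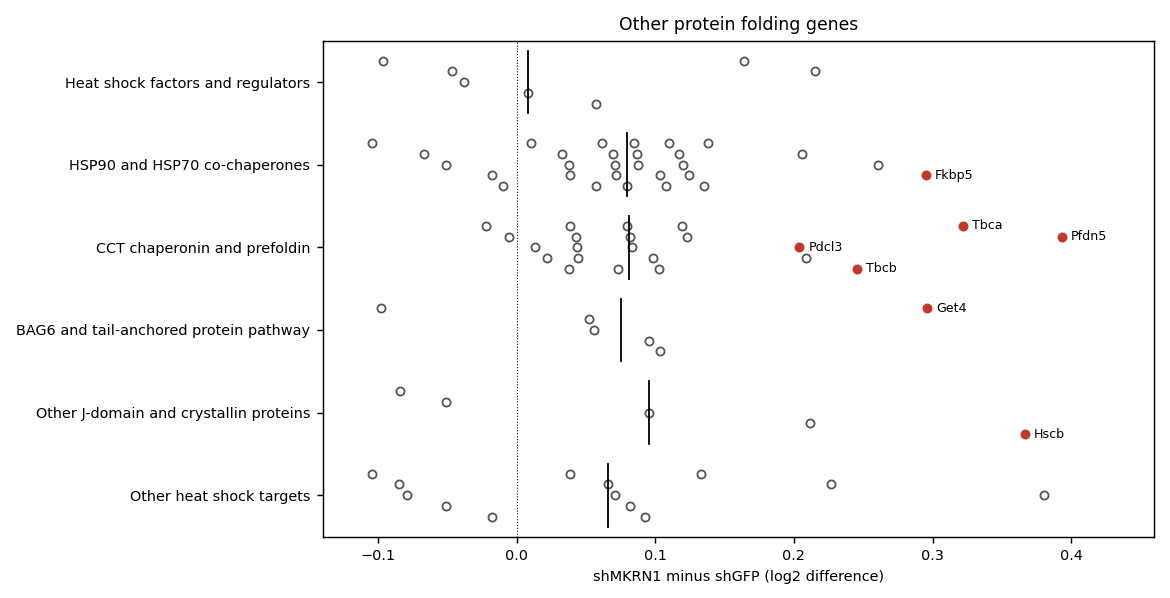
Change of each measured gene of 6 lists of protein folding genes outside the members, as a log2 difference (points; a gene can stand in 2 lists), with the list median as a vertical bar; vertical offsets only separate points. The 7 red points have an adjusted p of at most 0.05, and all lie to the right of 0.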

How the data were processed

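Total RNA was measured on 8 Affymetrix mouse gene arrays, grouped by the hairpin in their titles. The deposited values are log2 expression for 34760 probe sets, and the submitters' processing notes name RMA, with no version. That method brings arrays to a common distribution, so a change common to most genes is not visible. Depth has no meaning here: 4 arrays a group limit the precision.

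Of the probe sets, 21640 had 1 symbol in the platform annotation, 1321 several and 11799 none. Per symbol the probe set with the highest mean was kept (19937 genes). Groups were compared with limma 3.58.1 in R 4.3.3 (lmFit, eBayes, no covariate or filter), two-sided, with Benjamini-Hochberg adjustment over all genes; errors are SE of the fit or SD. The labels do not say whether samples of a group were separate transfections, so the p-values rest on a spread between samples that could be purely technical. The fit was also run on simulated data with independent noise for each gene and array, and no result here rests on that run. The level of 6.50 is the 95th percentile of 1190 receptor genes. Members and lists were chosen with earlier results of these data known. Values on every array are given for called members, for classical heat-inducible ones and for the 2 with the smallest p in each family. Promoters were matched by Entrez number. Alternatives were other scalings, variance models, probe set rules, a block of consecutive array numbers and leaving out arrays.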

Additional observations from a re-analysis of the deposited data

Results flagged for a closer look

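In 14 of 174 groups of 4 arrays 1 array stood apart from the other 3 by Dixon's test, which chance does in about 1 in 20 groups. Array shGFP 7 was low for Hspa4l (7.03, others 7.42 to 7.49), Bag1 (9.55, others 9.69 to 9.70) and Hspa9 (11.99, others 12.05 to 12.06), and high for Dnajb7 (4.24, others 3.87 to 3.91). Array shMKRN1 8 was low for Dnajb2 (7.26, others 7.59 to 7.63) and Hspd1 (12.44, others 12.53 to 12.54), and high for Hspa12b (6.525, others 6.10 to 6.12). Array shMKRN1 2 was high for Dnajb12 (9.85, others 9.74 to 9.75) and Hspb1 (12.71, others 12.57 to 12.58). Array shMKRN1 4 was high for Hspa4l (7.57, others 7.49 to 7.50) and low for Hscb (7.26, others 7.40 to 7.41). Array shGFP 1 was low for Dnajc30 (8.77, others 8.99 to 9.02), shGFP 5 was low for Hspa1l (6.02, others 6.16 to 6.18) and shMKRN1 6 was high for Fkbp5 (9.68, others 9.59 to 9.60).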

How the results depend on the processing

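The count of members called higher (2 of 74) was 5 of 74 with array weights, where 2757 of 19937 genes were called in either direction. It was 1 among genes above the median level only, where 1595 genes were called. That set leaves out the members of lower level. The count was 0 with every probe set adjusted together, and 0 to 1 when 1 array was left out. Without shGFP 7 and shMKRN1 8 together, an alternative chosen after seeing the data, it was 1 (Hspb11). The count called lower (0) was 1 with array weights (Dnajc6) and stayed 0 when any 1 array was left out. Over all genes, 896 were called, and 1595 among genes above the median level only, 1549 with a trended and robust variance, 2757 with array weights, 378 with every probe set and 309 to 852 without 1 array. For the 7 called folding genes outside the members these counts were 13, 13, 16, 3 and 1 to 7. The median change of the members was 0.0695 after median centring and 0.03 to 0.06 without 1 array. Array weights also called Dnajb3, Dnajc15 and Hspa14 higher. Of the 74 members, 25 changed sign under at least 1 of 18 alternatives, none of them called either way. The cause of these differences was not tested. The groups share no replicate number and the labels pair no arrays. With consecutive array numbers as a block, also chosen after seeing the data, 1446 genes were called, among them the members Bag3 (limma adjusted p = 0.0414) and Hspb11 (0.0125) and no other, and 9 folding genes outside the members.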
